A study of Mus musculus with 4 samples.

Results

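The genes described here are 36 markers of T cells and natural killer (NK) cells, listed by symbol with earlier results of these data known, among the 22911 genes that the arrays covered with a named probe. All 36 had a probe, 11 of them had several, and 49 probes were matched in all. Cells of the peritoneal cavity were compared between LysM-St18flox mice and wild-type (WT) mice, each after 3 h of lipopolysaccharide (LPS) and at 0 h, with 1 array in each of the 4 groups. In both genotypes the cells were washed out of the cavity 3 days after an injection of 4% thioglycollate, which recruits white blood cells there. The labels call the cells peritoneal macrophages, while the titles read PEC, commonly short for peritoneal exudate cells, a mixture that includes lymphocytes. They name a single mouse as the source of each sample, and they do not say whether the 3 h and 0 h cells came from the same animal. LysM refers to the lysozyme promoter, which is active in macrophages and granulocytes and is not a T cell promoter. St18 encodes a zinc finger transcription factor. Strain, age and sex, the LPS dose, and whether the WT mice carried any allele of the LysM or St18 constructs are not given in the sources used here.

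T cells recognise antigen through the T cell receptor, whose signal passes through the CD3 chains to the kinases LCK and ZAP-70 and the adaptor LAT. NK cells lack that receptor, read activating and inhibitory surface receptors instead, and kill with perforin and granzymes that cytotoxic T cells also use. Both are commonly a minority beside macrophages in a thioglycollate exudate, and their genes were chosen as markers of cells other than the labelled type. No cell share was measured, and which cells gave the signal of a member was not tested. In bulk RNA, a change in the number of such cells cannot be told apart from a change in the RNA of each cell.

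Values are log2 processed signals of the brightest probe of a gene, minus the 75th percentile of the array, so that 0 stands for the signal at that percentile. They compare 1 probe between arrays and do not rank genes. Between 52.2% and 55.6% of spots were well above background on each array, no spot was saturated, and repeated spots of a probe gave an SD of 0.05 (log2) for a difference between single spots. With 1 array in a group no difference has a replicate check and no p-value was computed. A gene was counted as higher or lower from a 2-fold difference on, which is 1 on the log2 scale. All 15 macrophage markers were well above background on every array. St18 had -4.82 (not well above background) at LysM-St18flox 3 h, -4.54 (not well above background) at LysM-St18flox 0 h, -1.66 at WT 3 h and -1.31 at WT 0 h. It was thus lower in LysM-St18flox cells, in the direction of the labels, by at least 8.48-fold at 3 h and 7.07-fold at 0 h. That is by the brighter of its 2 probes, the other being undetected on all 4 arrays. Where they lie relative to the floxed part was not analysed here. The WT 0 h array stood apart in that its probes for the same gene shifted against each other by a median of 0.387 (log2), against 0.169 to 0.220 on the other arrays. The genotype comparison at 3 h does not contain it.

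Of the 36 genes, 24 were well above background on all 4 arrays and 4 on none (Cd8a, Ctla4, Ncr1 and Eomes). By array, 31 were above background at LysM-St18flox 3 h, 28 at LysM-St18flox 0 h, 28 at WT 3 h and 26 at WT 0 h. Ncr1, the receptor NKp46 that marks NK cells most narrowly, and Eomes, a T-box factor of NK and memory T cells, were thus undetected. Klrb1c, the NK1.1 antigen, was detected on the 3 h arrays only. Among the 36 genes, Klrd1, Klrk1, Nkg7, Gzma and Prf1 stood for the NK side on all 4 arrays. Cytotoxic T cells express these genes as well. In the wider list below, the receptor genes Klra1, Klra4, Klra7, Klra8, Klra9 and Klrb1b were also detected on all 4 arrays. Klrc1 and Klri2 were detected on none.

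**Figure D1:**
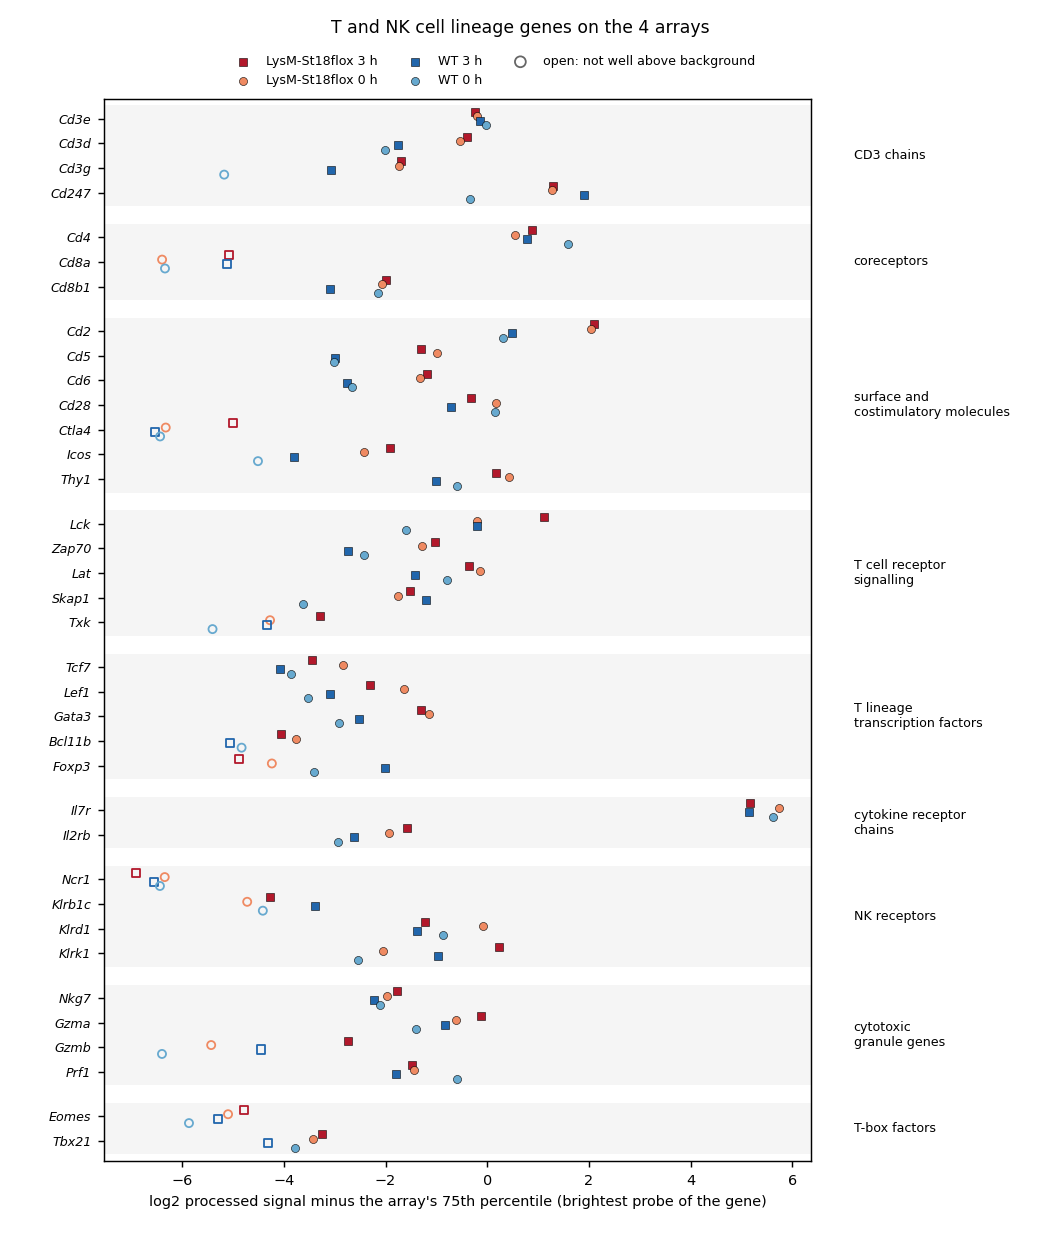
Normalized log2 signal of the brightest probe (horizontal axis, log2 units relative to the array's 75th percentile) of the 36 genes, ordered by role. Each symbol is 1 array, squares are 3 h of LPS and circles 0 h, and open symbols are not well above background. For Cd3d, Cd2, Cd5, Cd6, Thy1, Zap70 and Gata3 the LysM-St18flox symbols lie to the right of both WT symbols.

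A group of T cell genes had higher signals in LysM-St18flox cells after LPS and without it, mostly by 2-fold to 4-fold, while others were near equal in the genotypes. After 3 h of LPS, 27 of the 36 were measured on both arrays, of which 14 were higher by 2-fold or more and 0 were lower. Over all 13049 genes measured in that comparison, 1.82% were higher and 1.40% lower. At 0 h, 25 were measured, of which 12 were higher and 1 was lower (Cd4), where 3.04% of 12679 genes were higher and 3.03% lower. The median log2 difference over the measured members was 1.03 at 3 h and 0.99 at 0 h, against -0.01 and -0.03 over all measured genes.

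The counts depend on how dim probes are treated. With normexp background correction 9 members were higher by 2-fold or more at 3 h and 7 at 0 h. Probes above the median detected signal covered 6 members in either comparison, of which 2 were higher (Cd2 and Lck at 3 h, Cd2 and Cd247 at 0 h) and, at 0 h, 1 was lower (Cd4), and the medians were 0.06 and 0.07.

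The comparisons at 3 h and at 0 h share no array. They may share animals, since the labels leave that open, so the times need not be independent. Of the 24 genes measured on all 4 arrays, 8 reached 2-fold higher at both times (Cd3d, Cd2, Cd5, Cd6, Thy1, Lck, Zap70 and Gata3), where 0.834% of 12344 genes were. Both LysM-St18flox arrays lay above both WT arrays for 15 of the 24, where 10.9% of all genes did so. Both lay below both WT arrays for 1 of the 24 (Cd3e), where 13.3% of all genes did so. Among the 15, some gaps were narrow. For Lck the lower LysM-St18flox value was -0.1943 and the higher WT value -0.196. For Cd8b1 these values were -2.0803 and -2.1527.

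**Figure D2:**
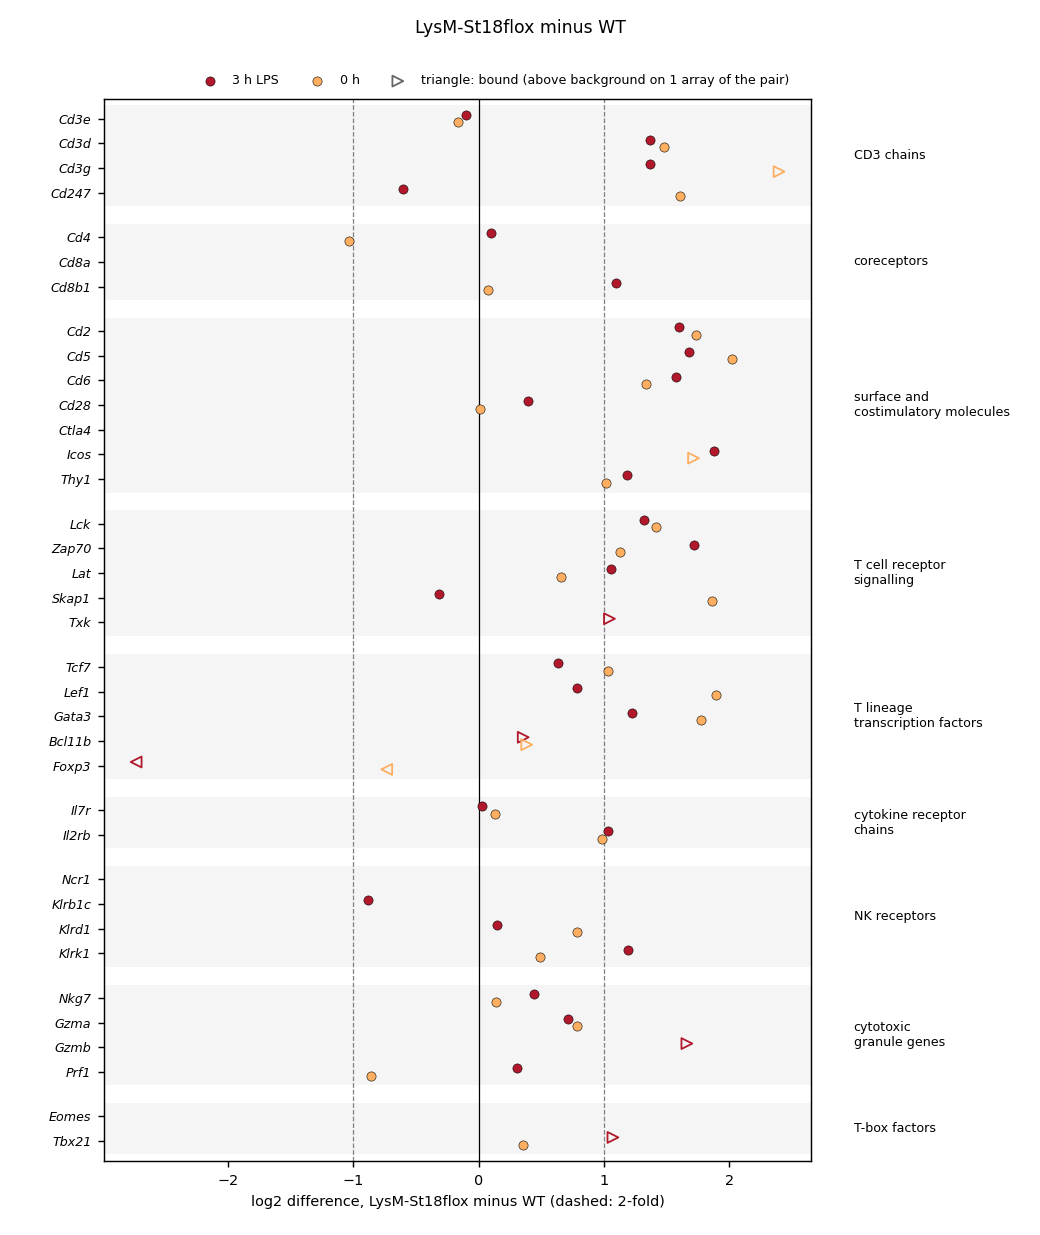
Log2 difference of LysM-St18flox minus WT (horizontal axis) for each of the 36 genes, at 3 h of LPS and at 0 h. Filled points are genes measured on both arrays, triangles are bounds for genes above background on 1 array of the pair, and dashed lines mark 2-fold. At 3 h 14 points lie right of the upper dashed line and none left of the lower one.

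The CD3 genes encode the signalling chains of the T cell receptor complex. Cd3g, Cd3d and Cd3e follow each other on chromosome 9 in the RefSeq gene table. The 250 bases before the start of each are shown (RefSeq, 5′ to 3′). Capitals mark every match, on either strand, to core letters of factors active in T cells: TGTGGT for RUNX factors, CTTTGA for TCF/LEF factors, CAGGAAG for ETS factors, AGATAA for GATA factors, GGTGTGA for T-box factors and CAGNTG for the E-box, where N is any base.
Cd3d (GRCm38.p6, chr9:44981536-44981785, plus strand): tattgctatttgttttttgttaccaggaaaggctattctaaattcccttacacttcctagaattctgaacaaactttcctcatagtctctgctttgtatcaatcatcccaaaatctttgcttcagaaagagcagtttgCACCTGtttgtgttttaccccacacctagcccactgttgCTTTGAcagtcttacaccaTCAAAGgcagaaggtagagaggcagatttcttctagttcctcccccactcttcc
Cd3g (GRCm38.p6, chr9:44980432-44980681, minus strand): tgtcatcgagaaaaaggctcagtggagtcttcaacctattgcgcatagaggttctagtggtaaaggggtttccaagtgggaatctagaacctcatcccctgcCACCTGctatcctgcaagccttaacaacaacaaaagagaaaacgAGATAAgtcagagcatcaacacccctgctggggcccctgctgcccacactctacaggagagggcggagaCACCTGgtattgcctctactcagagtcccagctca
Cd3e (GRCm38.p6, chr9:45009612-45009861, minus strand): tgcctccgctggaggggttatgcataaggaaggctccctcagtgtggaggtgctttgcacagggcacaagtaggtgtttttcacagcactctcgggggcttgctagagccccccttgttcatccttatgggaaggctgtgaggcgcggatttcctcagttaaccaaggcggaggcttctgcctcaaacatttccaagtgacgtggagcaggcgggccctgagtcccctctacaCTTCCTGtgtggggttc

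The Cd3d window held 2 matches to the TCF/LEF letters and 1 to the E-box letters, the Cd3g window 1 to the GATA and 2 to the E-box letters, and the Cd3e window 1 to the ETS letters, with no base shared between motifs. Windows were at hand for 26 of the 36 genes. Counting a gene once over all its windows, the E-box letters were found in 20 of the 26 and in 48.2% of all 27025 genes, the ETS letters in 10 and 12.1%, and the RUNX letters in 10 and 15.9%. For the TCF/LEF letters this was 5 of the 26 and 15.8%, for the GATA letters 3 and 11.4%, and for the T-box letters 1 and 3.84%. These are letter matches only, and no binding was measured.

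Cd3d, the delta chain, had -0.39 at LysM-St18flox 3 h, -0.53 at LysM-St18flox 0 h, -1.76 at WT 3 h and -2.01 at WT 0 h. Both LysM-St18flox values were above both WT values, by 2.58-fold at 3 h and 2.78-fold at 0 h. Its second probe gave log2 differences of 1.78 and 1.35. Cd3g, the gamma chain, had -1.71 at LysM-St18flox 3 h, -1.75 at LysM-St18flox 0 h, -3.07 at WT 3 h and -5.18 (not well above background) at WT 0 h. It was higher in LysM-St18flox cells by 2.58-fold at 3 h and by at least 5.27-fold at 0 h, the WT 0 h value being the lowest.

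Cd3e, the epsilon chain, had -0.25 at LysM-St18flox 3 h, -0.20 at LysM-St18flox 0 h, -0.15 at WT 3 h and -0.03 at WT 0 h. Its 4 arrays lay close together, unlike those of its neighbours. The dimmer Cd3e probe was higher in LysM-St18flox cells by at least 2.31-fold at 3 h and by a log2 difference of 0.14 at 0 h, so the probes of Cd3e did not give the same value. Cd247, the zeta chain, which NK cells use too, had 1.30 at LysM-St18flox 3 h, 1.27 at LysM-St18flox 0 h, 1.90 at WT 3 h and -0.34 at WT 0 h. Here the WT 0 h array was low and the other 3 lay together, which gave -0.60 at 3 h and 1.60 at 0 h. A second Cd247 probe, of another transcript, gave 0.69 and -0.09, and the remaining probe was undetected. With the mean of the probes the Cd247 difference was 0.04 at 3 h and 0.76 at 0 h.

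**Figure D3:**
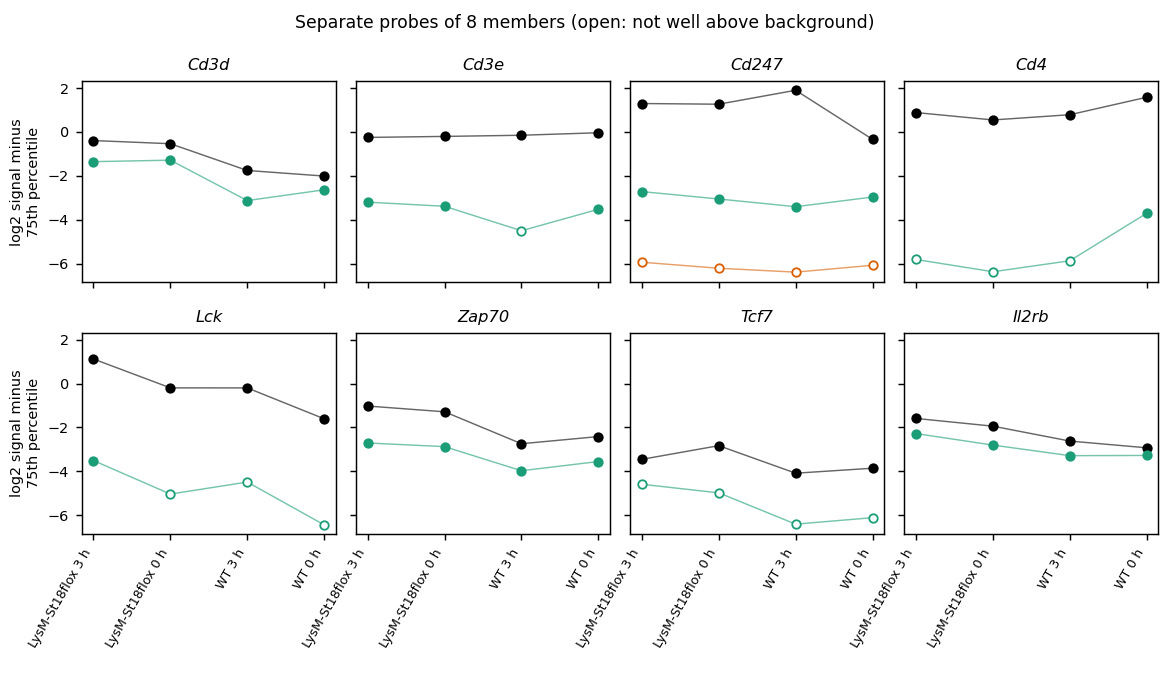
Normalized log2 signal (vertical axis, log2 units relative to the 75th percentile) of every probe of 8 genes on the 4 arrays, each colour being 1 probe and open points not well above background. Both probes of Cd3d, of Zap70 and of Il2rb are higher on each LysM-St18flox array than on the WT array of the same time, while the brightest probes of Cd247 and Cd3e do not follow the dimmer ones.

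Of the coreceptors, which bind MHC molecules beside the T cell receptor, none was 2-fold higher at both times. Cd4, of helper T cells, had 0.89 at LysM-St18flox 3 h, 0.55 at LysM-St18flox 0 h, 0.79 at WT 3 h and 1.59 at WT 0 h. It differed by 0.10 at 3 h and at 0 h LysM-St18flox cells were 2.05-fold lower, where the WT 0 h array was the high one. Its second probe was above background at WT 0 h only. Cd8b1, the beta chain of CD8, had -1.99 at LysM-St18flox 3 h, -2.08 at LysM-St18flox 0 h, -3.09 at WT 3 h and -2.15 at WT 0 h, with WT 3 h the low array. That made it 2.14-fold higher at 3 h, and the difference at 0 h was 0.07. Cd8a, the alpha chain, was not well above background by either of its probes.

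Of the surface molecules of T cells, 5 of 6 measured were higher by 2-fold or more at 3 h and 4 of 5 at 0 h. Cd5, an inhibitory receptor, had -1.31 at LysM-St18flox 3 h, -0.99 at LysM-St18flox 0 h, -2.99 at WT 3 h and -3.02 at WT 0 h. The genotypes were well apart, by 3.21-fold at 3 h and 4.07-fold at 0 h, the widest measured at 0 h among the 36 genes. Cd2, an adhesion molecule, had 2.09 at LysM-St18flox 3 h, 2.04 at LysM-St18flox 0 h, 0.49 at WT 3 h and 0.30 at WT 0 h. The arrays of a genotype lay close together, and the difference was 3.04-fold at 3 h and 3.34-fold at 0 h.

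Cd6, a receptor related to CD5, had -1.18 at LysM-St18flox 3 h, -1.32 at LysM-St18flox 0 h, -2.76 at WT 3 h and -2.65 at WT 0 h. It was 2.98-fold higher at 3 h and 2.52-fold higher at 0 h. Thy1, a surface glycoprotein of mouse T cells, had 0.17 at LysM-St18flox 3 h, 0.42 at LysM-St18flox 0 h, -1.02 at WT 3 h and -0.59 at WT 0 h. The genotypes did not overlap, at 2.27-fold and 2.02-fold higher. Icos, a costimulatory receptor of activated T cells, had -1.92 at LysM-St18flox 3 h, -2.43 at LysM-St18flox 0 h, -3.80 at WT 3 h and -4.51 (not well above background) at WT 0 h. Its 3.68-fold difference at 3 h was the widest measured at that time, and at 0 h it was higher by at least 3.28-fold.

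Cd28, the main costimulatory receptor of naive T cells, did not follow. It had -0.33 at LysM-St18flox 3 h, 0.16 at LysM-St18flox 0 h, -0.72 at WT 3 h and 0.15 at WT 0 h, which are differences of 0.39 and 0.01. Ctla4, its inhibitory counterpart, was undetected on all 4 arrays.

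Among signalling genes, the kinase genes Lck and Zap70 exceeded 2-fold in LysM-St18flox over WT cells at both times. Zap70, which docks on phosphorylated CD3 and zeta chains, had -1.02 at LysM-St18flox 3 h, -1.29 at LysM-St18flox 0 h, -2.74 at WT 3 h and -2.42 at WT 0 h. It was 3.29-fold higher at 3 h and 2.19-fold higher at 0 h, and its second probe gave log2 differences of 1.27 and 0.68. Lck, which phosphorylates those chains, had 1.12 at LysM-St18flox 3 h, -0.19 at LysM-St18flox 0 h, -0.20 at WT 3 h and -1.61 at WT 0 h. It was 2.50-fold higher at 3 h and 2.66-fold higher at 0 h, and the LysM-St18flox 0 h and WT 3 h arrays had nearly the same value since it was also higher after LPS in both genotypes.

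Lat, the adaptor that ZAP-70 phosphorylates, had -0.37 at LysM-St18flox 3 h, -0.14 at LysM-St18flox 0 h, -1.43 at WT 3 h and -0.80 at WT 0 h. The genotypes did not overlap, at 2.08-fold and 1.58-fold. Skap1, an adaptor that links the receptor to integrins, had -1.52 at LysM-St18flox 3 h, -1.76 at LysM-St18flox 0 h, -1.21 at WT 3 h and -3.63 at WT 0 h. As for Cd247, only WT 0 h stood apart, and the differences were -0.32 at 3 h and 1.86 at 0 h. Txk, a kinase of the TEC family, was above background at LysM-St18flox 3 h only (-3.29), at least 2.06-fold higher than at WT 3 h.

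Of the T lineage transcription factors, 3 of 5 were detected on all arrays and all 3 were higher at 0 h. Gata3, which directs helper T cell development, had -1.31 at LysM-St18flox 3 h, -1.16 at LysM-St18flox 0 h, -2.53 at WT 3 h and -2.93 at WT 0 h. That was 2.33-fold and 3.41-fold higher in LysM-St18flox cells, with no overlap. Lef1 had -2.31 at LysM-St18flox 3 h, -1.63 at LysM-St18flox 0 h, -3.09 at WT 3 h and -3.53 at WT 0 h, and Tcf7 had -3.46, -2.83, -4.09 and -3.86 in that order. These related factors of naive T cells were 1.72-fold and 1.55-fold higher at 3 h, and 3.71-fold and 2.04-fold higher at 0 h. For Tcf7 at 0 h the log2 difference was 1.03, and it was 0.43 with normexp correction.

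Bcl11b, needed for T lineage commitment, was above background in LysM-St18flox cells only, with -4.05 at 3 h and -3.76 at 0 h, against -5.05 at WT 3 h and -4.83 at WT 0 h, neither well above background. Its bounds were at least 1.28-fold and 1.30-fold. Foxp3, the factor of regulatory T cells, went the other way. Its LysM-St18flox values, -4.89 at 3 h and -4.24 at 0 h, were not well above background, against -2.01 at WT 3 h and -3.40 at WT 0 h. That is lower in LysM-St18flox cells by at least 6.66-fold at 3 h and 1.66-fold at 0 h, from a single probe.

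Of the cytokine receptor chains, Il7r, the alpha chain of the interleukin-7 receptor, had 5.17 at LysM-St18flox 3 h, 5.74 at LysM-St18flox 0 h, 5.14 at WT 3 h and 5.61 at WT 0 h. It followed time and not genotype, with genotype differences of 0.03 and 0.13. Il2rb, a chain shared by the interleukin-2 and interleukin-15 receptors, had -1.59 at LysM-St18flox 3 h, -1.94 at LysM-St18flox 0 h, -2.62 at WT 3 h and -2.93 at WT 0 h. It was 2.04-fold higher at 3 h and 1.98-fold higher at 0 h, and its second probe gave log2 differences of 1.01 and 0.47.

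Of the NK receptor genes, 1 of 3 measured was higher by 2-fold or more at 3 h and 0 of 2 at 0 h. Klrk1, the activating receptor NKG2D, had 0.23 at LysM-St18flox 3 h, -2.05 at LysM-St18flox 0 h, -0.96 at WT 3 h and -2.55 at WT 0 h. At 3 h the LysM-St18flox value was 2.28-fold above the WT value, and at 0 h 1.41-fold. Klrd1, the CD94 chain, had -1.23 at LysM-St18flox 3 h, -0.08 at LysM-St18flox 0 h, -1.37 at WT 3 h and -0.86 at WT 0 h, which are differences of 0.15 and 0.79. Klrb1c had -4.28 at LysM-St18flox 3 h and -3.39 at WT 3 h, a difference of -0.89, and was not well above background at 0 h.

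Of the granule genes none was measured at 2-fold or more. Gzma, granzyme A, had -0.12 at LysM-St18flox 3 h, -0.61 at LysM-St18flox 0 h, -0.83 at WT 3 h and -1.39 at WT 0 h, 1.64-fold and 1.73-fold higher. Gzmb, granzyme B, was above background at LysM-St18flox 3 h only (-2.74), at least 3.16-fold higher than at WT 3 h. Nkg7, a granule membrane protein, differed by 0.44 at 3 h and 0.14 at 0 h.

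Prf1, perforin, had -1.49 at LysM-St18flox 3 h, -1.44 at LysM-St18flox 0 h, -1.79 at WT 3 h and -0.59 at WT 0 h, which are differences of 0.30 and -0.86 with WT 0 h the high array. Tbx21, the T-box factor T-bet of type 1 and cytotoxic cells, had -3.25 at LysM-St18flox 3 h, -3.44 at LysM-St18flox 0 h, -4.32 (not well above background) at WT 3 h and -3.79 at WT 0 h. It was higher by at least 2.10-fold at 3 h and by a log2 difference of 0.36 at 0 h.

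Other T and NK cell genes were taken from a list of 58, of which 57 had a probe. After LPS 33 were measured, of which 10 were higher and 0 were lower (median 0.67). At 0 h 30 were measured, of which 11 were higher and 0 were lower (median 0.73). Those past 2-fold at both times, 8 of 29 measured on all arrays, included Ptprcap, Prkcq, Grap2, Cxcr6, Ikzf3, Ets1 and Ms4a4b. Prkcq, protein kinase C theta, differed by 1.21 at 3 h and 1.1 at 0 h, and Grap2, the adaptor GADS, by 1.50 and 1.23. Cxcr6, a chemokine receptor, differed by 1.29 and 1.85, and Ms4a4b, a membrane protein of T cells, by 1.27 and 1.55. Ikzf3, a lymphoid factor abundant in B cells too, differed by 2.41 and 2.61, Ptprcap, a partner of CD45, by 1.62 and 1.55, and Ets1, a lymphoid transcription factor, by 1.50 and 1.35. Another 14 of the 57, among them Cd27, Themis and Cd40lg, were undetected on all 4 arrays.

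Some members are shared with other cell types, and some markers of these also differed by genotype. In mice Cd2 and Cd5 are also on B cells (Cd5 on peritoneal B-1a cells), and Gata3, Icos, Thy1 and Il7r on group 2 innate lymphoid cells. Of 11 measured B cell markers, 8 were higher by 2-fold or more at 3 h and 9 at 0 h, with medians of 2.20 and 2.23. The summed signal of these 11, in units of the array's 75th percentile, was 22.3 at LysM-St18flox 3 h, 28.0 at LysM-St18flox 0 h, 5.38 at WT 3 h and 7.13 at WT 0 h, and no B cell marker with a probe was undetected on every array. The summed signal of the 24 T and NK cell members detected throughout was 57.15, 72.64, 49.18 and 60.96 in that order. Il7r and Il2rb alone gave 36.29, 53.62, 35.48 and 48.97 of it. Of 8 innate lymphoid genes, a list that holds the members Icos and Gata3, Il5, Il13 and Il17rb were undetected on all 4 arrays, while Il1rl1, which mast cells share, differed by 1.27 at both times. Only 5 genes of the list were measured at 3 h and 3 at 0 h. Its medians of 1.22 and 1.27 were the values of Gata3 and Il1rl1. Rora differed by -0.07 at 3 h and 0.52 at 0 h, and Areg by -0.16 at 3 h. The summed signal of the list's 3 genes detected throughout was 5.17, 7.33, 3.81 and 4.50 in the same order of arrays.

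Mast cell markers had medians of 1.51 and 0.98, with Ms4a2 undetected, and erythroid markers 3.27 and 2.79, with Slc4a1 likewise undetected. Mesothelial and fibroblast markers, of which Thy1 can be one, had medians of -1.45 and -1.26, with 7 of 8 and 6 of 7 at least 2-fold lower, and Thy1 differed the other way. The summed signal of the 7 detected throughout was 4.20, 5.31, 12.0 and 11.6. Macrophage markers had medians of -0.06 and -0.26, neutrophil markers -0.42 and -0.69, with 4 of 10 and 5 of 11 lower by 2-fold or more, and dendritic cell markers, of which Cd4 and Cd8a can be some, 0.55 and 0.42. Ptprc, the pan-leukocyte gene CD45, differed by -0.03 and 0.29. The part of these other cells in the differences of the shared members was not tested.

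**Figure D4:**
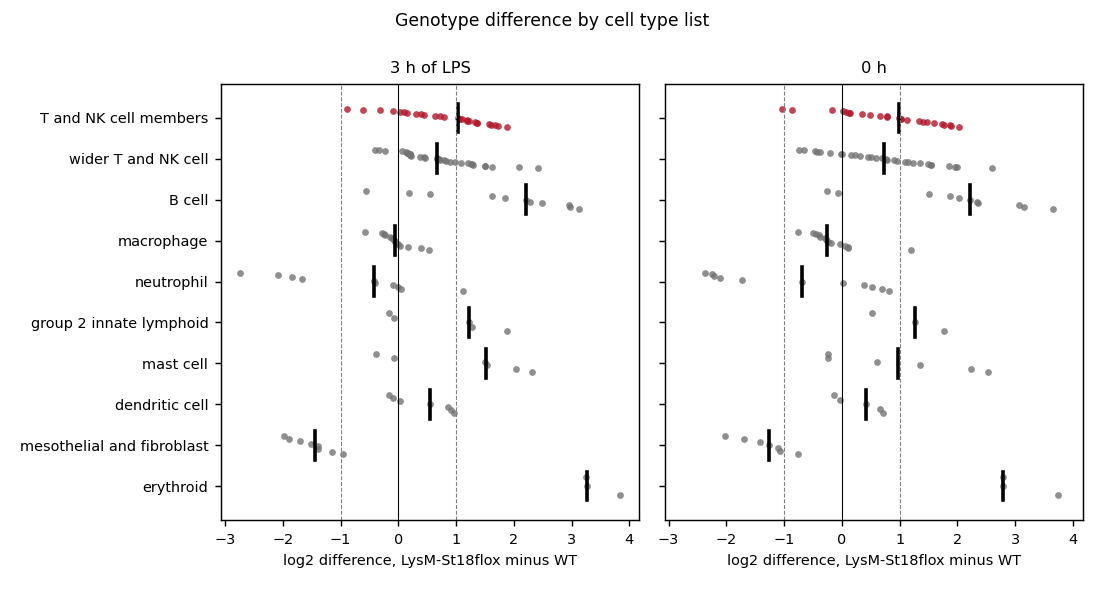
Log2 difference of LysM-St18flox minus WT (horizontal axes) at 3 h of LPS (left) and 0 h (right), for the T and NK cell genes and lists of other cell types. Each point is a measured gene, thick bars are medians and dashed lines mark 2-fold. The T and NK cell medians of 1.03 and 0.99 lie between those of B cell markers (2.20 and 2.23) and macrophage markers (-0.06 and -0.26).

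After LPS most T and NK cell genes were within 2-fold of their 0 h value. In LysM-St18flox cells 28 were measured, of which 2 reached 2-fold higher at 3 h than at 0 h (Lck and Klrk1) and 1 lower (Klrd1), where 8.12% of 12976 genes were higher and 8.97% lower. In WT cells 25 were measured, 5 higher (Cd247, Lck, Skap1, Foxp3 and Klrk1) and 1 lower (Prf1), where 9.04% of 12589 genes were higher and 11.6% lower. Neither count in LysM-St18flox cells exceeded the share of all genes. Medians over the measured members were 0.05 in LysM-St18flox cells and -0.10 in WT cells, against -0.09 and -0.11 over all genes.

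Klrk1 and Lck were the members above 2-fold in both genotypes. By the values above, Klrk1 was higher at 3 h than at 0 h by 4.87-fold in LysM-St18flox cells and 3.00-fold in WT cells, and Lck by 2.49-fold and 2.66-fold. A second Lck probe was higher by at least 1.54-fold in LysM-St18flox cells and was not above background in WT cells. Gzmb was higher at 3 h by at least 2.62-fold in LysM-St18flox cells, and not well above background at either time in WT cells. Klrd1 was 2.22-fold lower at 3 h in LysM-St18flox cells and 1.43-fold lower in WT cells. Il7r was 1.48-fold and 1.38-fold lower.

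Every WT difference after LPS, those of Klrk1 and Lck included, sets the WT 3 h array against the WT 0 h array that stood apart. The remaining WT genes measured past 2-fold were Cd247, Skap1, Prf1 and Foxp3. By a bound, Cd3g was also higher at 3 h in WT cells, by at least 2.10-fold, and differed by 0.04 in LysM-St18flox cells. Cd247 was 4.72-fold higher and Skap1 5.34-fold higher at 3 h in WT cells, against 1.02-fold and 1.18-fold in LysM-St18flox cells, and the second Cd247 probe gave -0.44 (log2) in WT cells (0.90 for the mean of the probes). Prf1 was 2.31-fold lower in WT cells and differed by -0.04 in LysM-St18flox cells. Foxp3 was 2.62-fold higher in WT cells, 0.85 on the log2 scale with normexp, and undetected in LysM-St18flox cells. By the brightest probe, Cd3d, Cd3e and the surface genes Cd2, Cd5, Cd6 and Thy1 differed by less than 0.5 between 3 h and 0 h in both genotypes. The dimmer Cd3e probe was lower at 3 h in WT cells by at least 1.84-fold. The surface gene Cd28 differed by -0.49 in LysM-St18flox cells and -0.87 in WT cells. Icos differed by 0.51 in LysM-St18flox cells and was higher by at least 1.27-fold in WT cells.

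**Figure D5:**
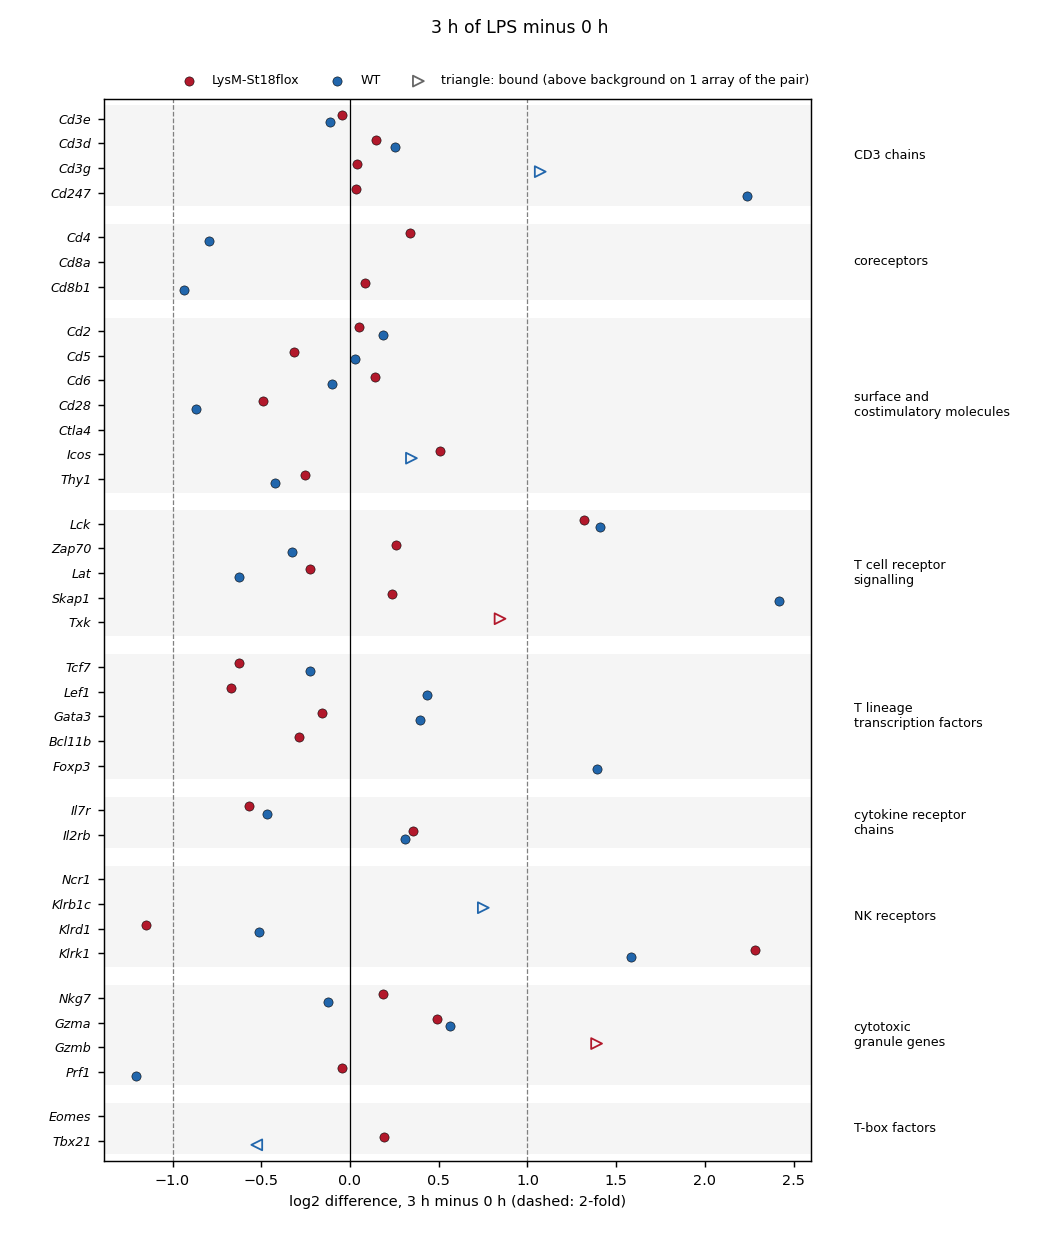
Log2 difference of 3 h of LPS minus 0 h (horizontal axis) for each of the 36 genes in LysM-St18flox and in WT cells. Filled points are genes measured on both arrays, triangles are bounds and dashed lines mark 2-fold. Points of Lck and Klrk1 lie beyond 2-fold in both genotypes, those of Cd247, Skap1, Foxp3 and Prf1 in WT cells, and that of Klrd1 in LysM-St18flox cells. Triangles beyond 2-fold are Cd3g in WT cells and Gzmb in LysM-St18flox cells.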

How the data were processed

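RNA of the 4 samples was hybridised to Agilent 1-colour (Cy3) arrays on 1 slide. The deposited spot intensity values are Feature Extraction output (11.0.1.1, per the submitters' processing notes and the file headers), its processed signal, which is not normalized between arrays. The flags for background, saturation and outliers are per the file headers. The deposited value table holds log2 values of 25482 probes, in which the sorted values of the 4 columns differ by at most 0.0004 and which correlate with their own arrays at 0.99994 or more. No source used here states how the authors made it.

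Scanner files name accessions only. Of 35886 RefSeq probes, 32994 matched 1 symbol each in the RefSeq table of GRCm38.p6. The headers name another build, so no probe coordinates are given. Spots of a probe were averaged on the log2 scale without control or outlier spots, and the array's 75th percentile over non-control spots was subtracted. The brightest probe stood for a gene. Measured means that both arrays of a comparison had this probe well above background and unsaturated. Detection on 1 array only gave a bound, for which the dim array was set to its own value or to its lowest detected signal, whichever was higher. All 36 members are named, the wider list by values only where past 2-fold at both times, and 1 such gene is not reported here.

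Members, lists and motifs were chosen with earlier results of these data known. The alternatives were normexp correction, quantile normalization, the median of detected probes as centre, no filter or a stricter filter on dim probes, the mean of a gene's probes, and the deposited values. Calculations (Python 3.11.15, limma 3.58.1 for normexp with an offset of 50 and for quantile normalization) were tested on simulated data.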

Additional observations from a re-analysis of the deposited data

Results flagged for a closer look

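In 5 genes the difference between 3 h of LPS and 0 h had opposite signs in the genotypes, both beyond 2 SDs of a difference between single spots (SD 0.05), and with 1 array in a group the difference between genotypes was not tested. This SD comes from repeated spots within an array and does not measure the spread between arrays or animals. Probes for the same gene shifted against each other by more, a median of 0.169 to 0.387 by array. On the log2 scale Cd4 had 0.34 in LysM-St18flox cells and -0.80 in WT cells, and Zap70 0.26 and -0.33. Lef1 had -0.67 in LysM-St18flox cells and 0.43 in WT cells, Gata3 -0.16 and 0.39, and Nkg7 0.18 and -0.12. In 3 genes the LysM-St18flox minus WT difference changed sign with time by the same measure, again not tested. Cd247 had -0.60 at 3 h and 1.60 at 0 h, Skap1 -0.32 and 1.86, and Prf1 0.30 and -0.86. Signs also differed, with the smaller value within 2 SDs, for Cd8b1 (0.09 and -0.94), Cd5 (-0.31 and 0.03) and Cd6 (0.14 and -0.10) after LPS, and for Cd4 between genotypes (0.10 at 3 h and -1.04 at 0 h). For Cd247, Skap1 and Prf1 the WT 0 h array was the farthest from the others, and it is also the array on which probes for the same gene disagreed most.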

How the results depend on the processing

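No paired analysis was run, since each group had 1 array and the labels number no replicates. With 1 array in a group no replicate could be left out. A fit of genotype plus time, with their interaction as its only error, was not run. Of 220 values of members at least 2-fold apart recomputed under 7 alternatives, 220 kept their sign and 17 came under 2-fold. Many of these values could not change. Both filter settings alter which genes count and not the value of a gene. The mean of probes leaves a gene with 1 probe as it was. Members that a setting dropped are not among the 220. For LysM-St18flox minus WT at 3 h the median was 0.69 with normexp correction, 0.062 with the stricter filter on dim probes (6 members left) and 0.88 in the deposited values, and 9, 2 and 12 members were at least 2-fold higher. Without a background filter 1 was at least 2-fold lower. At 0 h the median was 0.66 with normexp, 0.90 with quantile normalization, 0.88 without a background filter, 0.07 with the stricter filter and 0.79 with the mean of all probes. Normexp left 7 members higher and 0 lower, and the stricter filter 2 higher and 1 lower. The LPS median in LysM-St18flox cells was 0.12 with quantile normalization, 0.11 without a background filter and -0.0069 with the stricter filter. Without a filter 5 were higher, and with the stricter filter 1 higher and 0 lower. In WT cells it was -0.017 with quantile normalization, 0.11 without a filter and 0.057 in the deposited values. Here 10 were higher without a filter, and 1 higher and 0 lower with the stricter filter. The median difference of the LPS responses over 24 members was -0.014, and 0.10 with normexp, -0.079 without a filter, -0.10 with the stricter filter and 0.16 with the mean of all probes. The stricter filter tests fewer genes, and the cause of the other shifts was not tested. Signal over background limits the dim genes, since 9 of the 36 members at 3 h and 11 at 0 h were not measured on both arrays.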
